A study of Mus musculus with 4 samples.

Results

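Solute carriers are membrane proteins that move sugars, amino acids, ions, nucleotides, metals and organic acids across the plasma membrane and across the membranes of organelles. Their symbols carry a family number that follows sequence likeness, and members of a family often share a substrate. The Slc25 family sits mainly in the inner mitochondrial membrane and exchanges metabolites, phosphate and nucleotides between the cytosol and the matrix. In the testis, the somatic cells supply germ cells with lactate and other nutrients, so carriers occur in both compartments. The genes described here were selected on their symbols and on measured signals. A gene was taken where its symbol had the form of a solute carrier name and its brightest probe was flagged well above background on both Input arrays or both FLAG IP arrays. The RefSeq table held 382 such symbols, 336 of them had a probe, and 268 in 50 families met the signal requirement.

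The 4 arrays measured testis RNA of male mice at postnatal day 7, 2 from Input and 2 from FLAG immunoprecipitates (FLAG IP). Every sample, Input included, carried the transgene Tg-Nanos2 enhancer-3xFLAG-Nanos2-3'UTR, which places a FLAG tag on NANOS2 under the Nanos2 enhancer. NANOS2 binds RNA in male germ cells and maintains spermatogonial stem cells, and the comparison asks which transcripts make up a different share of the RNA recovered with the tagged protein. No array of an untagged or antibody-only precipitate was analysed here, so a difference is one of share between precipitate and Input and not a measure of binding. The duplicates are called biological in the series' design text, no animals are named, and the p-values measure the spread between these arrays.

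The share of probes well above background ranged from 66.3% to 68.4% over the arrays, and 0 spots were saturated. The number of arrays, 2 in each group, limits the precision. A level below is log2 of a probe's processed signal relative to the 75th percentile of its array, and a change is the FLAG IP mean minus the Input mean of that level, with its standard error (SE) from limma. A gene was called higher or lower where the limma p, adjusted by Benjamini-Hochberg over all 21589 tested features, was under 0.05. The tissue's own markers were present: all 10 Sertoli cell markers and 10 of 11 markers of undifferentiated spermatogonia were tested. Most marker lists moved with the groups. Of the spermatogonial markers, 8 were called higher and 0 lower, with a list mean per array of -2.48 to -2.34 in Input and -1.01 to -0.71 in FLAG IP. Of the Sertoli markers, 4 were called lower and 0 higher, with a list mean of 2.74 to 2.83 in Input and 2.04 to 2.10 in FLAG IP. All 4 tested of 6 macrophage markers were called lower, with a list mean of -0.65 to -0.56 in Input and -1.91 to -1.73 in FLAG IP. Of 7 Leydig cell and 6 peritubular myoid cell markers, 4 of each were called lower and 0 higher. General germ cell markers had 0 calls of 5 by limma, with 1 unadjusted p under 0.05, and a median change of 0.12. Endothelial markers had 0 calls of 5, with 2 unadjusted p under 0.05, and a median change of -0.30. Ret, among the higher spermatogonial markers, was below background on both Input arrays. Lhcgr, among the lower Leydig cell markers, was below background on both FLAG IP arrays. Their calls were largely fixed by the group that admitted them. The other tested markers of these lists were well above background on all arrays. The part of the marker shift in the changes of carrier genes was not tested. In RNA of a whole tissue, the cell type a transcript came from and its recovery in the precipitate cannot be told apart.

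The solute carrier genes divided in both directions. Of the 268 genes, 32 were called higher in FLAG IP, 23 were called lower and 213 were not called. Slc1a1, a glutamate and cysteine transporter, and Slc9b1, a sodium-proton exchanger, were among the higher genes, and Slc4a7, a sodium bicarbonate cotransporter, had the lowest change. The called shares were 11.9% higher and 8.58% lower. Over all tested features the shares were 15.8% higher and 21.3% lower, and over the tested features with a gene symbol they were 16.2% and 19.0%. The median change of the carrier genes was -0.01, against -0.15 for all tested features. Changes were within 1 log2 unit of 0 for 238 of the 268 genes, and a called change of 2-fold or more was found for 22 higher and 4 lower genes.

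Because a gene could enter through the group in which it was bright, detection belongs beside these counts. On all 4 arrays 252 genes were well above background, 7 were so on 3 arrays, 7 on the FLAG IP arrays only and 2 on the Input arrays only. All 9 genes detected in a single group were called toward the group that admitted them, which the way they were chosen largely fixes. Among the 252 genes detected on all arrays, 23 were called higher and 21 lower, or 9.13% and 8.33%. The shares for all symbol-bearing features detected on all arrays were 15.7% and 19.1%. The signals of the FLAG IP arrays did not overlap those of the Input arrays for 180 of the 268 genes (67.2%), against 74.6% of all tested features.

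Of the 68 carrier genes that were not taken, 51 were flagged on no array, 15 on 1 array, and 2 on 1 array of each group. The last pair, Slc26a5 and Slc4a4, lay just outside the threshold. The processed signals of Slc26a5, a motor protein of hair cells, were 18.2 and 44.3 in Input and 22.5 and 17.3 in FLAG IP. Those of Slc4a4, a sodium bicarbonate cotransporter, were 19.6 and 18.2 in Input and 27.7 and 9.37 in FLAG IP. Just inside it, the level of Slc6a3, the dopamine transporter, was -5.77 and -5.28 in FLAG IP, where both arrays were flagged, and -6.22 and -6.52 in Input, where neither was.

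The carriers were grouped by the main substrate of their family, so a group can hold a few carriers of other substrates, and several of the larger groups held calls in both directions. The 9 families with calls in both directions were Slc1, Slc2, Slc6, Slc10, Slc12, Slc16, Slc25, Slc26 and Slc35, while 11 families had higher calls only, 6 had lower calls only and 24 had no call. The sugar group had 6 higher and 1 lower of 23 genes, with a median change of 0.27. The calcium exchangers had 0 higher and 1 lower of 6, and all 6 changes were below 0. The group medians otherwise lay between -0.33 for the 3 peptide carriers and 0.33 for the 9 phosphate and vesicular carriers.

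**Figure D1:**
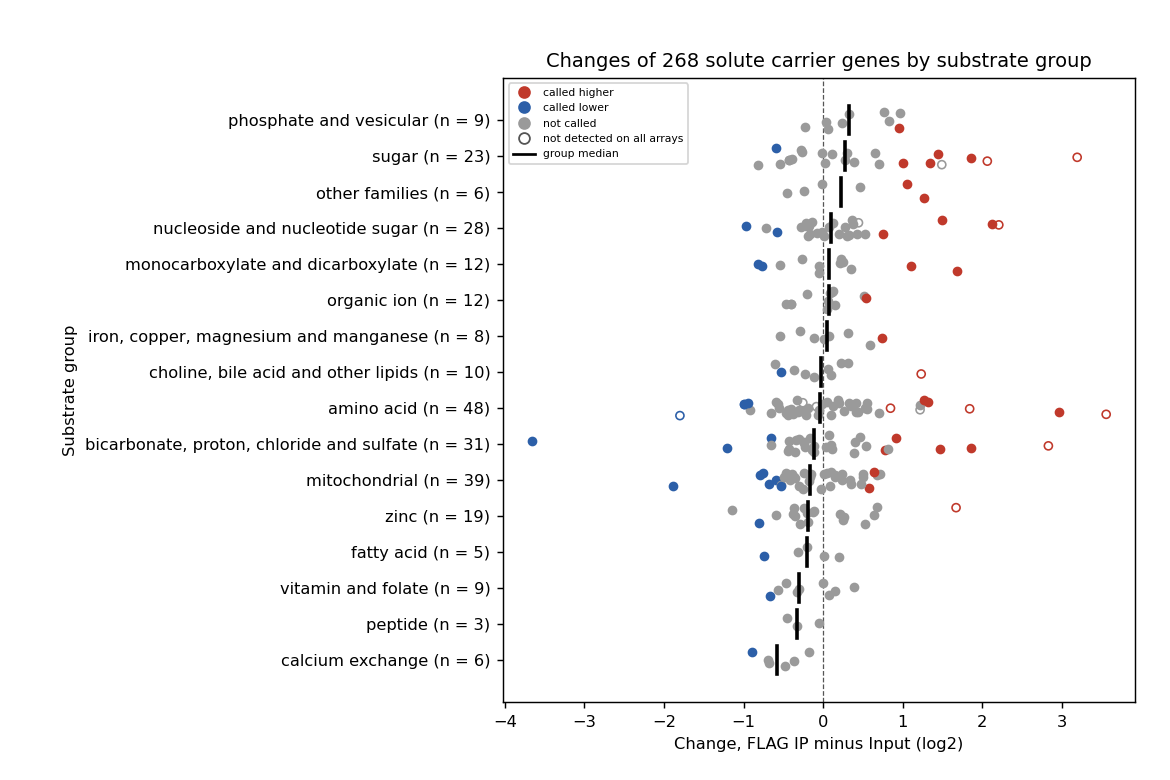
Change of each of the 268 solute carrier genes (FLAG IP minus Input, log2, horizontal axis) by substrate group (vertical axis, ordered by median). Red and blue points are genes called higher and lower by limma, grey points are not called, open points were not detected (well above background) on all arrays, and black bars are group medians. The group medians lie near 0, with Slc4a7 as the point at -3.66 and several of the open points beyond 2.

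Slc4a7 encodes an electroneutral sodium bicarbonate cotransporter that brings bicarbonate into cells. It was picked by name with its change in these data known, so its values are a description without a test. Its level was 2.45 and 1.71 on the Input arrays and -2.37 and -0.79 on the FLAG IP arrays. Both Input arrays were above both FLAG IP arrays, by 2.50 between the closest pair. The processed signals were 8085 and 5478 in Input and 198 and 731 in FLAG IP, all well above background. The change was -3.66 ± 0.58 (SE, n = 2 and 2 arrays), which is 12.7-fold lower in FLAG IP. It was the lowest change among the carrier genes and among all tested features with a symbol. The FLAG IP arrays differed from each other by 1.57 for this probe, a gap exceeded by 1 of the 268 genes, Slc43a2, and the array had no second probe for it. The change ranged from -4.45 to -2.88 when each array was left out in turn.

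The other exchangers and cotransporters of the Slc4 family had changes nearer 0. The 3 anion exchangers Slc4a1, Slc4a2 and Slc4a3, which swap chloride for bicarbonate, had changes of -0.45 ± 0.31, -0.12 ± 0.16 and -0.34 ± 0.19. Slc4a8, a sodium-driven exchanger, had a change of 0.10 ± 0.32, and Slc4a9 one of 0.47 ± 0.27. None of these 5 was called. By change, the carrier genes detected on all arrays that came nearest to Slc4a7 were Slc25a21 and Slc26a7, at -1.89 and -1.21, or -0.53 and -0.10 with normexp background correction, under which Slc4a7 was at -3.47. Slc6a20a was nearest to Slc4a7 as well by its fitted change, but it was below background in FLAG IP and has only a bound.

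Of the 31 genes for bicarbonate, protons, chloride and sulfate, 5 were called higher and 3 lower, Slc4a7 included. Slc9b1 encodes a sodium-proton exchanger of the testis and sperm. Its level was -2.87 and -2.61 in Input and -0.83 and -0.93 in FLAG IP. The pairs were tight and did not overlap, the change was 1.86 ± 0.16 (limma adjusted p = 0.0049), and a second probe gave 2.25. Slc12a2 encodes the sodium-potassium-chloride cotransporter that loads cells with chloride, and male mice without it are infertile. It stood at -0.42 and -0.30 in Input and at 1.28 and 0.93 in FLAG IP, a change of 1.47 ± 0.18 (limma adjusted p = 0.0081). Slc26a4 encodes pendrin, a chloride and iodide exchanger. Its Input levels of -7.04 and -6.70 were not well above background, and its FLAG IP levels were -3.66 and -4.41.

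A gene below background in one group has only a bound. The folds written with "at least" set the bright group's mean against a floor, which on each dim array is the lowest level well above background or, where higher, that of the probe itself. Slc26a4 was at least 5.29-fold higher in FLAG IP. With normexp background correction, which adds an offset of 50 to each signal, the fitted changes of the 5 genes of this kind named as higher ranged from 0.82 for Slc5a8 to 1.20 for Slc26a4, below these bounds. Slc26a2, a sulfate transporter, was also called higher, at 0.78 ± 0.16. So was Slc9a3r1, whose product is a scaffold that binds a proton exchanger and is no carrier itself, at 0.92 ± 0.15. In the other direction, Slc26a7, an anion exchanger of acid-secreting epithelia, stood at -4.64 and -4.53 in Input and at -5.90 and -5.68 in FLAG IP. Its change was -1.21 ± 0.15 (limma adjusted p = 0.0088), and with normexp background correction it was -0.10 and not called.

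The amino acid carriers numbered 48, of which 6 were called higher and 4 lower. Slc1a1 had the highest change, that is the largest increase, of any carrier gene measured in both groups. It encodes a high-affinity transporter of glutamate, aspartate and cysteine. Its level was -4.53 and -5.17 in Input and -2.01 and -1.75 in FLAG IP. The groups were apart on every array, with a change of 2.97 ± 0.26 (limma adjusted p = 0.0050), or 7.84-fold, and a second probe gave 2.14. Slc1a3, a glutamate transporter of the same family found on glia, had the opposite sign. Its level was -2.03 and -1.5 in Input and -2.53 and -2.99 in FLAG IP, a change of -1.0 ± 0.26 (limma adjusted p = 0.042). That call was lost under several settings, among them no filter on dim probes and leaving out Input replicate 1, Input replicate 2 or FLAG IP replicate 2. Slc1a5, the neutral amino acid and glutamine transporter, had a change of -0.92 ± 0.29 and was not called (limma adjusted p = 0.065).

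The Slc7 family includes the light chains of the heteromeric amino acid transporters, and Slc3a2 encodes a heavy chain that carries such light chains to the cell surface. Of 13 genes with an Slc7 symbol, 3 were called higher and 0 lower. Slc7a11 encodes the cystine-glutamate exchanger that feeds glutathione synthesis. It was below background in Input and stood at -4.05 and -4.85 in FLAG IP, which made it at least 3.97-fold higher, and its other probes were also below background in Input. Slc7a9 encodes the cystine and dibasic amino acid light chain of kidney. Its level was -3.67 and -3.69 in Input and -2.31 and -2.41 in FLAG IP. That difference was far larger than the gap within either pair, with a change of 1.32 ± 0.14 (limma adjusted p = 0.0064). Slc7a14, a lysosomal member of the family, had a change of 1.27 ± 0.19 (limma adjusted p = 0.012) on its brightest probe and 0.14 on the other. Averaged over both probes its change was 0.71 and was not called.

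The partners that load leucine and other large neutral amino acids did not move with them. Slc3a2 had levels of 4.29 and 4.31 in Input and 4.18 and 3.90 in FLAG IP, and Slc7a5, its common light chain, had 3.52 and 3.48 in Input and 3.05 and 3.06 in FLAG IP. Their changes were -0.26 ± 0.16 and -0.44 ± 0.13, and neither was called. All 8 genes of the Slc38 family, which take up glutamine and other small neutral amino acids, were uncalled by limma, and 1 of them had an unadjusted p under 0.05. The largest changes in that family were -0.56 ± 0.23 for Slc38a1 and 0.56 ± 0.26 for Slc38a2. A second probe gave 0.11 for Slc38a1 and 0.33 for Slc38a2.

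The Slc6 family couples transport to sodium and chloride, and it had 1 higher and 3 lower calls among 14 genes. Slc6a8 takes up creatine. Its level was 1.51 and 1.37 in Input and 0.44 and 0.54 in FLAG IP, a change of -0.95 ± 0.14 (limma adjusted p = 0.012). Slc6a20a, a transporter of proline and related imino acids, and Slc6a15, a transporter of branched-chain amino acids and proline, were below background in FLAG IP. They were at least 1.29-fold and at least 1.73-fold lower there. With normexp background correction the changes of both turned to just above 0, at 0.01 for Slc6a20a and 0.03 for Slc6a15. Slc36a2, a proton-coupled carrier of small amino acids, was detected on 3 arrays and called higher at 1.84 ± 0.28.

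Of the 23 sugar carriers, 6 were called higher. The Slc2 family carries glucose and fructose by facilitated diffusion. Slc2a5, the fructose transporter, stood at -2.69 and -2.67 in Input and at -1.06 and -1.62 in FLAG IP. Its change was 1.34 ± 0.23 (limma adjusted p = 0.015). Slc2a3, a high-affinity glucose transporter of neurons and germ cells, had levels of -0.07 and 0.21 in Input and 1.31 and 0.84 in FLAG IP. The groups did not overlap and the change was 1.0 ± 0.22 (limma adjusted p = 0.028). That call was lost under several settings, among them spike-in scaling, no filter on dim probes and leaving out either Input array. Slc2a1, the widely expressed glucose transporter, was not called at 0.31 ± 0.14, and Slc2a12 was called lower at -0.59 ± 0.14. Slc45a3, a carrier known from prostate, was called higher at 1.45 ± 0.24 (limma adjusted p = 0.014).

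The Slc5 family drives sugar and organic anion uptake with the sodium gradient, and 3 of its 7 genes were called higher and 0 lower, with a median change of 1.49. Slc5a1 and Slc5a8 were below background in Input, and Slc5a4b was detected on 3 arrays. That median is the change of Slc5a4b, which was not called, and a second probe of Slc5a4b gave -0.68. Slc5a1, the sodium-glucose cotransporter of gut, stood at -4.86 and -5.57 in FLAG IP and was at least 2.33-fold higher, and its second probe was likewise below background in Input. Slc5a8, which takes up monocarboxylates, stood at -4.57 and -5.40 in FLAG IP and was at least 2.75-fold higher. Slc5a4a, a relative of the glucose cotransporter, was dim but measured on all arrays, at -5.26 and -4.43 in Input and -2.54 and -3.43 in FLAG IP. Its change was 1.86 ± 0.42 (limma adjusted p = 0.029). All 3 were dim probes, and 3 of the 7 genes were not detected on all arrays, so the family median rests partly on how the genes were chosen.

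**Figure D2:**
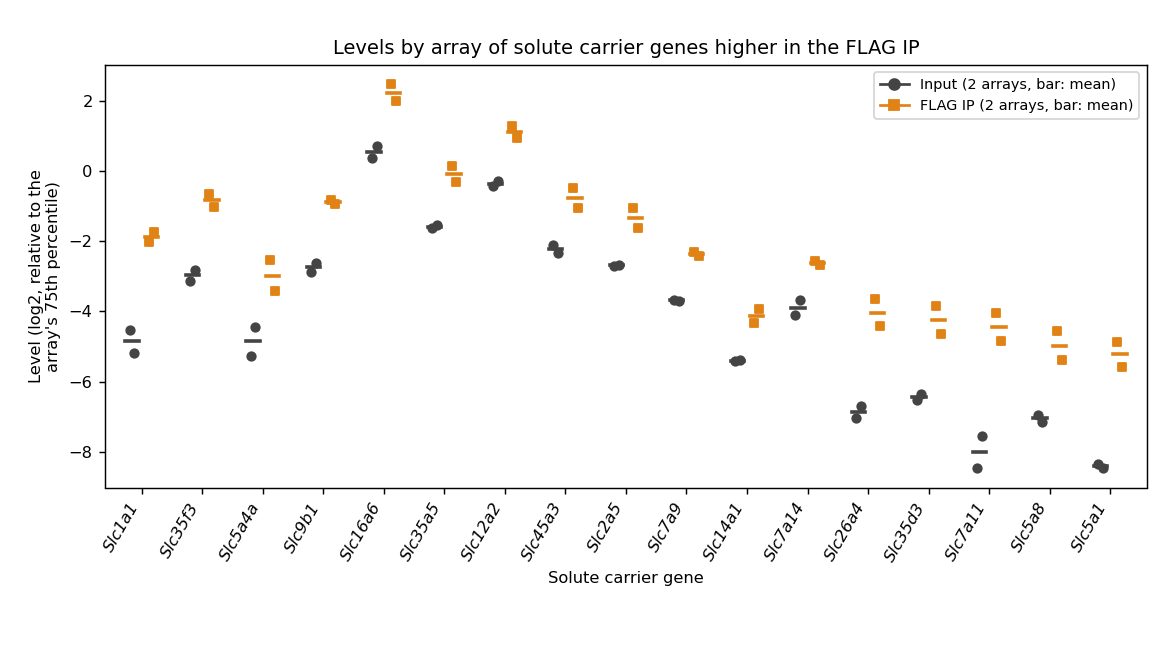
Level on each array (log2, relative to the array's 75th percentile) of 17 solute carrier genes called higher, with Input as circles, FLAG IP as squares and bars as the mean of 2 arrays. The 5 genes at the right, from Slc26a4 on, were not well above background in Input. FLAG IP squares lie above Input circles for every gene, and levels of different genes come from different probes and are not comparable.

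Monocarboxylate carriers of the Slc16 family export or import lactate, pyruvate and related acids. Together with 1 gene of the Slc13 family they formed a group of 12, with 2 called higher and 2 lower. Slc16a3 is the lactate exporter of glycolytic cells. Its level was 3.87 and 4.09 in Input and 3.36 and 3.07 in FLAG IP, a change of -0.77 ± 0.18 (limma adjusted p = 0.031). Slc16a1, which mainly takes lactate up or lets it out by gradient, had levels of 2.56 and 2.47 in Input and 2.62 and 2.91 in FLAG IP. Its change of 0.25 ± 0.16 was not called, and its further probes gave 0.20 and -0.23. Slc16a4, a family member without a settled substrate, was called lower at -0.82 ± 0.22 (limma adjusted p = 0.042), with -1.53 on a second probe.

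Slc16a6, which carries ketone bodies, was called higher with a level of 0.38 and 0.71 in Input and 2.48 and 2.0 in FLAG IP. Its change was 1.69 ± 0.23 (limma adjusted p = 0.010). A second probe, assigned to another RefSeq transcript of the gene, had a change of -0.79, and the mean of both probes gave 0.45 and no call. Slc16a10, a carrier of aromatic amino acids, was called higher at 1.11 ± 0.15 (limma adjusted p = 0.010). Its second probe, not well above background on FLAG IP replicate 1, had the opposite sign at -0.37. The calls of Slc16a3 and Slc16a4 were both lost under several settings, among them quantile normalization, no filter on dim probes, spike-in scaling taken relative to its overall shift, and leaving out either Input array. Slc16a4 was at -0.37 with normexp background correction.

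Nucleoside carriers and the nucleotide sugar carriers of the Golgi numbered 28, with 4 called higher and 2 lower, and the Slc35 family supplied 4 of the higher calls and 1 of the lower. Slc35f3 has been linked to thiamine transport. It stood at -3.13 and -2.81 in Input and at -0.65 and -1.02 in FLAG IP, a change of 2.13 ± 0.21 (limma adjusted p = 0.0057). Its other probe was not well above background on any array, and averaging both gave 1.10 and no call. Slc35a5, an orphan of the nucleotide sugar transporter family, stood at -1.64 and -1.53 in Input and at 0.14 and -0.31 in FLAG IP. Its change was 1.5 ± 0.20 (limma adjusted p = 0.010), and its other tested probes gave 0.89 and 0.91. Slc35d3 was below background in Input and at least 4.49-fold higher in FLAG IP, where it stood at -3.83 and -4.64.

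Slc29a1, the equilibrative nucleoside transporter of the plasma membrane, went the other way. Its level was 2.98 on each Input array and 2.13 and 1.90 in FLAG IP. The Input pair hardly differed, and the change was -0.97 ± 0.15 (limma adjusted p = 0.013). Slc35f2 was called higher at 0.75 ± 0.17 and Slc35f5 lower at -0.58 ± 0.15.

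Zinc is moved out of the cytosol by the Slc30 carriers and into it by the Slc39 carriers. Of 8 Slc30 genes 1 was called higher and 0 lower, and of 11 Slc39 genes 0 were called higher and 1 lower. Slc30a10, known as a manganese exporter, was detected on 3 arrays and called higher at 1.67 ± 0.28. Slc30a1, the zinc exporter of the plasma membrane, had a change of 0.68 ± 0.25 that was not called, and 0.94 on its second probe. Slc39a1, a zinc importer of the plasma membrane, stood at 1.65 and 1.48 in Input and at 0.75 and 0.77 in FLAG IP. Its change was -0.81 ± 0.14 (limma adjusted p = 0.017). Slc39a8, which also imports manganese, had a larger change of -1.15 ± 0.38 with a wider spread, and was not called. It stood at -1.36 and -0.66 in Input and at -1.74 and -2.58 in FLAG IP. Its second probe, not well above background on FLAG IP replicate 2, gave -1.88. The mean of both probes gave -1.52 and was called lower.

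Iron handling was represented by few genes. Slc40a1, ferroportin, is the exporter through which cells release iron. It stood at 0.66 and 0.87 in Input and at 1.63 and 1.39 in FLAG IP. Its change of 0.74 ± 0.17 was called higher (limma adjusted p = 0.030), and became -0.20 with spike-in scaling. It was 1 of 8 genes for iron, copper, magnesium and manganese, none of which was called lower. Slc11a1, the divalent metal transporter of macrophage phagosomes, and Slc11a2, its widely expressed relative, had changes of -0.29 ± 0.14 and 0.02 ± 0.13. Neither was called, and a second probe of Slc11a2 gave -0.08.

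All 6 calcium exchangers, which extrude calcium against sodium, had a change below 0, and 1 was called. Slc8a1 stood at -2.92 and -2.73 in Input and at -3.65 and -3.78 in FLAG IP. Its change was -0.89 ± 0.15 (limma adjusted p = 0.016), but its second probe gave -0.06, and the change was -0.51 with normexp background correction. The 3 genes of the Slc24 family, which also use potassium, had changes from -0.69 to -0.17 and were not called.

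Smaller substrate groups held few calls. Slc20a1, a sodium-phosphate cotransporter and retrovirus receptor, was called higher at 0.95 ± 0.19 (limma adjusted p = 0.023). Its levels were 2.71 and 2.95 in Input and 3.97 and 3.60 in FLAG IP, and a second probe gave 0.37. Slc14a1, the urea transporter of red blood cells and kidney, was called higher at 1.27 ± 0.19 (limma adjusted p = 0.011), with 0.48 on a second probe and 0.78 with normexp background correction. Of 4 tested red blood cell markers 2 were called lower and 0 higher, and a link of Slc14a1 to these markers was not tested. Slc47a1, an exporter of organic cations, was called higher at 0.54 ± 0.15, and Slc10a1, a bile acid transporter that was below background in Input, was at least 1.48-fold higher.

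Lower calls in the small groups fell on vitamin, fatty acid and lipid carriers. Slc19a1, the reduced folate carrier, stood at 1.35 and 1.48 in Input and at 0.82 and 0.68 in FLAG IP. Its change was -0.66 ± 0.15 (limma adjusted p = 0.027). A second probe gave -0.12, and the mean of both probes gave -0.39 and no call. Slc27a2, which imports and activates very long chain fatty acids, stood at -1.28 and -1.37 in Input and at -2.15 and -1.97 in FLAG IP. Its change was -0.74 ± 0.15 (limma adjusted p = 0.022). The Slc22 family of organic ion carriers had 0 calls among 11 genes by limma, with 1 unadjusted p under 0.05. Its largest change was 0.52 ± 0.22 for Slc22a18, whose second probe gave -0.06.

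**Figure D3:**
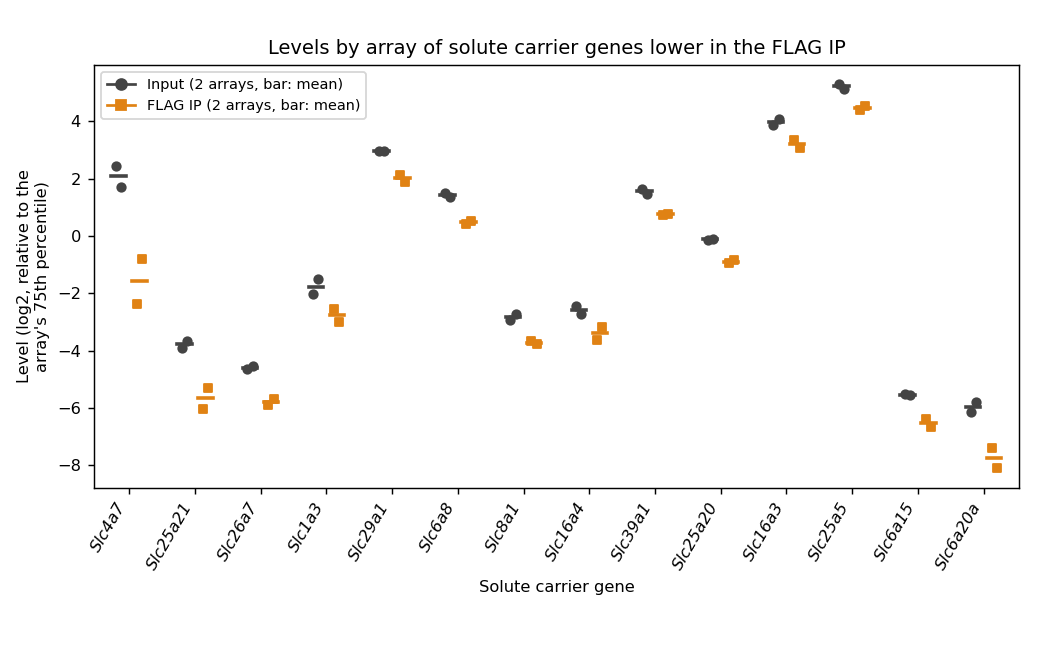
Level on each array (log2, relative to the array's 75th percentile) of 14 solute carrier genes called lower, with Input as circles, FLAG IP as squares and bars as the mean of 2 arrays. Slc6a15 and Slc6a20a, at the right, were not well above background in FLAG IP. Slc4a7 shows the widest separation, 2.45 and 1.71 against -2.37 and -0.79, and also the widest gap between FLAG IP arrays among these genes.

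The mitochondrial carriers formed the largest family, with 39 genes, all well above background on all 4 arrays. Of these, 2 were called higher (5.13%) and 6 lower (15.4%), and the median change was -0.16. For all tested features the shares were 15.8% and 21.3%, with a median of -0.15. The other 229 carrier genes had 30 higher and 17 lower calls and a median of -0.00. A change beyond 1 log2 unit was found for 1 mitochondrial carrier, Slc25a21, so the family spread little around its median.

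Slc25a21 carries oxoadipate and related dicarboxylates of lysine and tryptophan breakdown. It stood at -3.89 and -3.64 in Input and at -6.02 and -5.29 in FLAG IP. It was lower on both precipitate arrays, by 1.89 ± 0.28 on the log2 scale (limma adjusted p = 0.012), or 3.70-fold. With normexp background correction the change was -0.53, and the call was lost without Input replicate 2.

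The other lower calls of the family had smaller changes. Slc25a20 brings acylcarnitines into the matrix for fatty acid oxidation. It stood at -0.13 and -0.10 in Input and at -0.95 and -0.85 in FLAG IP, a change of -0.79 ± 0.14 (limma adjusted p = 0.016). Slc25a5 exchanges ADP for ATP. It stood at 5.30 and 5.15 in Input and at 4.40 and 4.53 in FLAG IP, a change of -0.76 ± 0.15 (limma adjusted p = 0.021). The Slc25a5 call was lost with quantile normalization, at -0.44, where that of Slc25a20 was kept. Both calls were lost with spike-in scaling taken relative to its overall shift. Slc25a10, the dicarboxylate carrier, had a change of -0.68 ± 0.14, Slc25a12, an aspartate-glutamate carrier, one of -0.59 ± 0.14, and Slc25a39, linked to mitochondrial glutathione, one of -0.53 ± 0.13.

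Slc25a4 and Slc25a31, which also exchange ADP for ATP, had changes below 0 without a call. Slc25a4 stood at 5.25 and 5.03 in Input and at 4.72 and 4.73 in FLAG IP, a change of -0.41 ± 0.15 (limma adjusted p = 0.091). Slc25a31, the form found in male germ cells, stood at 2.11 and 2.13 in Input and at 1.53 and 1.80 in FLAG IP, a change of -0.46 ± 0.16 (limma adjusted p = 0.080). Slc25a3, the phosphate carrier, had a change of -0.25 ± 0.14. With quantile normalization the changes were -0.04 for Slc25a4, -0.43 for Slc25a31 and -0.09 for Slc25a3.

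The higher mitochondrial calls were Slc25a46, an outer membrane protein involved in mitochondrial shape, at 0.63 ± 0.14, and Slc25a24, a calcium-regulated carrier of ATP and magnesium, at 0.58 ± 0.13. Slc25a46 had 2 further probes, with changes of -0.34 and 0.30. Larger changes of 0.72 ± 0.24 for Slc25a32, a folate or flavin carrier, and 0.68 ± 0.24 for Slc25a22, a glutamate carrier, had wider errors and were not called. Both family counts moved with the processing. Without Input replicate 1, 0 mitochondrial carriers were called higher and 1 lower, and without Input replicate 2, 0 and 0 were called.

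**Figure D4:**
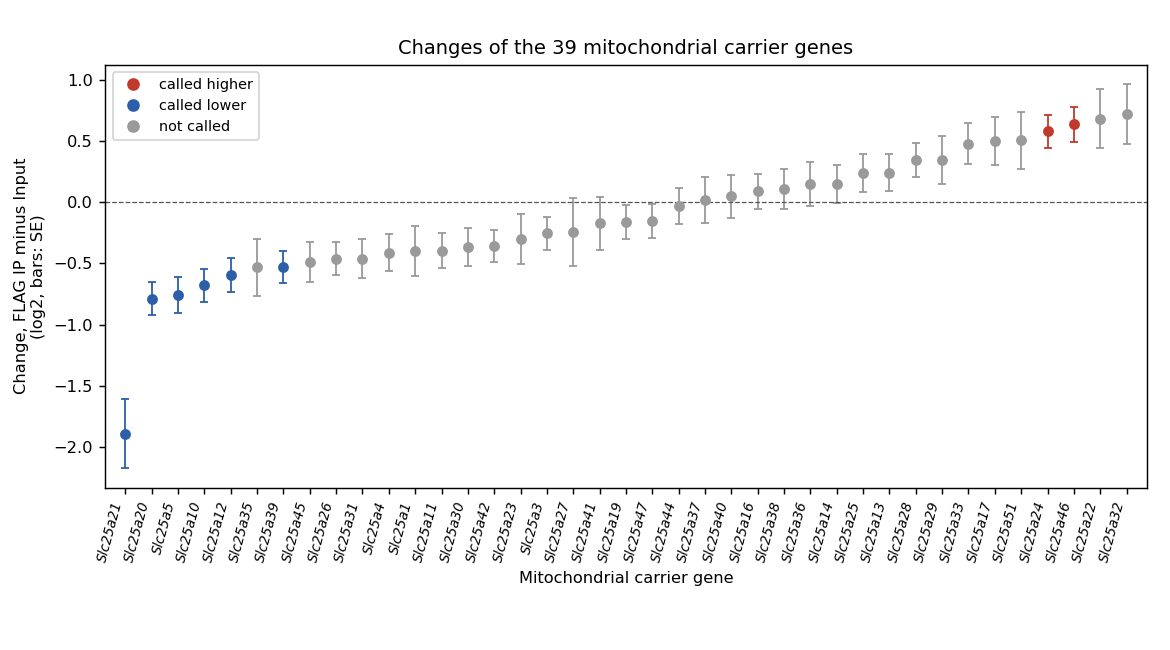
Change (FLAG IP minus Input, log2, with SE bars) of each of the 39 mitochondrial carrier genes in order of size, red where called higher, blue where called lower and grey where not called. Slc25a21 lies apart at -1.89, and all other genes lie between -0.79 and 0.72.

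Relatives of the carriers that do not bear such a symbol were taken as 64 further transporter genes. Of these, 4 were called higher (6.25%) and 15 lower (23.4%), with a median change of -0.37. The shares of all tested features were 15.8% and 21.3%, with a median of -0.15. Mitochondrial relatives of Slc25 had 3 lower calls among 6 genes. They were the uncoupling protein Ucp2, at -1.57 ± 0.14, the pyruvate carrier subunit Mpc1, at -1.18 ± 0.14, and Ucp1, which was below background in FLAG IP and at least 1.35-fold lower there. The organic anion transporters of the Slco family had 1 higher and 2 lower of 6, the ABC transporters 3 higher and 6 lower of 35, and the aquaporins 0 higher and 1 lower of 8. Of 4 partner proteins, Arl6ip5, which binds Slc1a1, was called lower at -1.85 ± 0.18. Bsg, the partner that carries Slc16 proteins to the surface, had a change of -0.84 and was not called.

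Replicates limit how far the single calls carry. Across the 268 genes, the difference between the 2 Input arrays had a standard deviation of 0.28, that between the 2 FLAG IP arrays 0.40, and the change between groups 0.77. All 32 higher and all 23 lower genes had non-overlapping groups, which fixes their sign when 1 array is left out. Each such omission leaves 1 array in a group, which is then assumed to vary like the pair in the other group. For Slc26a4, Slc35d3, Slc5a1 and Slc7a11, below background in Input and admitted through FLAG IP, keeping a call was largely fixed by that choice. Without Input replicate 1 the calls dropped to 11 higher and 2 lower, and without Input replicate 2 to 12 and 1. Under all 4 such omissions 7 of the higher genes kept their calls: Slc1a1, Slc35f3, Slc9b1, Slc26a4, Slc35d3, Slc5a1 and Slc7a11. None of the lower genes did.

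A second tested probe existed for 80 of the genes, giving 88 pairs with the brightest probe. The sign was the same in 68 of the 88 pairs, and the median absolute difference in change was 0.33. The brightest probe was called in 21 pairs, and in 8 of these the other probe was called in the same direction. In 1 pair, that of Slc49a4, a lysosomal carrier named here after its values were seen, the probes were called in opposite directions, at 1.06 ± 0.27 on the brighter and -0.73 on the other.

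All changes are relative to the bulk of each array. Scaled to the spike-in controls instead, all features shifted by -0.94 (log2), and the carrier genes had 10 higher and 165 lower calls. Relative to that shift, 26 were called higher and 6 lower. Of the 55 calls, 8 changed their sign under spike-in scaling, those whose higher change was below the shift. With normexp background correction, which moved the median of all features by 0.15, the counts were 49 and 29.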

How the data were processed

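Testis RNA of 2 Input and 2 FLAG IP samples was labelled with Cy3 and hybridised to single-colour Agilent mouse arrays, all on 1 slide in 1 scan. Per the file headers, spot intensity was extracted with Agilent Feature Extraction, version 9.5 per the submitters' processing notes. Their deposited intensity values comprise a background-subtracted processed signal, raw median signals and flags for spots well above background, saturated or outlying. The authors' deposited table holds log2 values, which equalled the log2 processed signal shifted by a fixed amount per array (tolerance 0.01, 99.6% of probes). The immunoprecipitation is not described in the labels. Titles and characteristics give day 7, and a description field that names a fetal gonad was not used.

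Outlier spots (62 to 90 per array) were left out, spots of a probe averaged, and each array's 75th percentile subtracted from log2 of the processed signal. Probes were named through RefSeq accessions (assembly GRCm38.p6), which named 55.7% of 41174 probes, and the brightest probe stood for a gene. The 21589 of 33377 features well above background on both arrays of a group were fitted with limma 3.58.1 in R 4.3.3 (two-sided, no covariate), checked on simulated data. Changes of second probes are given without a call, apart from the counts of probe pairs and Slc49a4. The genes and gene lists were chosen with earlier results of these data known. Genes named were the 12 largest calls in each direction among genes measured in both groups, up to 5 with a bound in each direction, the largest change in families of 5 or more, a list of well-known carriers, and the 3 nearest to Slc4a7. Other called genes named were chosen after their values were seen. A few genes of these lists are counted and not reported by name here. Alternatives were another percentile, the authors' values, normexp, quantile and spike-in scaling, probe means, other filters, the replicate block and leaving out each array.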

Additional observations from a re-analysis of the deposited data

How the results depend on the processing

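Of the 55 calls, 55 remained with the authors' values and with the 75th percentile over detected probes, 50 with normexp, 50 with quantile normalization and 43 with the mean of a gene's probes. Higher calls, 32 as reported, numbered 49 with normexp, 10 with spike-in scaling, 21 with the replicate block, and 11 to 47 leaving out 1 array. Lower calls, 23 as reported, numbered 165 with spike-in scaling, 6 relative to its shift, 8 with the replicate block, and 1 to 31 leaving out 1 array. The median change was 0.085 with normexp, -0.95 with spike-in scaling, and -0.17 to 0.10 leaving out 1 array.

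For the mitochondrial carriers, higher calls numbered 1 with probe means, 4 with normexp, 0 with the replicate block, 0 with either spike-in scaling, and 0 to 3 leaving out 1 array. Lower calls numbered 1 with the replicate block, 26 with spike-in scaling, 1 relative to its shift, and 0 to 5 leaving out 1 array. Their median was 0.054 with normexp, -0.085 with quantile normalization and -1.10 with spike-in scaling.

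Of the 55 calls, 3 turned sign with normexp and 8 with spike-in scaling. Among genes named by the rule, signs turned with normexp for Slc6a15 (0.025), Slc6a20a (0.011) and Slc11a2 (-0.011) and with probe means for Slc11a2 (-0.030). Leaving out 1 array, the change spanned -0.25 to 0.020 for Slc4a2, above 0 without FLAG IP replicate 2. With spike-in scaling they turned for Slc22a18 (-0.42), Slc30a1 (-0.26), Slc2a1 (-0.63), Slc16a1 (-0.69), Slc38a2 (-0.38), Slc11a2 (-0.92) and Slc40a1 (-0.20). The spike-in turns follow from its uniform shift. For the others the cause was not tested.

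No label pairs the arrays, and deviations of same-numbered arrays correlated at -0.38. The crossed pairing, added after seeing the data along with the relative spike-in scaling and the count without genes that are no carriers, called 54 carrier genes higher and 50 lower, and 5 mitochondrial carriers higher. A slide or scan block could not be run, because all arrays share 1 slide and scan. Signal near background limits the 16 genes not detected on all arrays.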
